A study of Mus musculus with 8 samples.

Results

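Molecular chaperones and heat shock proteins were examined as a set of 45 genes, chosen by symbol from families known to fold proteins. The set held 12 genes of the cytosolic Hsp70 system, 8 of Hsp90 and its co-chaperones, 8 subunits of the CCT/TRiC chaperonin, 6 mitochondrial chaperones, 9 chaperones of the endoplasmic reticulum (ER), the small heat shock protein gene Hspb1 and the heat shock factor gene Hsf1. Of the 45, 40 had a placed probe among 15089 gene symbols measured, and all 40 were brighter than the 95th percentile of empty wells. Hsp90aa1, Hsp90ab1, Ahsa1, Hspa1b and Hsf1 were not analysed here.

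The cells were CTL-EN, a mouse T-cell line, expressing the common beta chain (beta-c) of the human GM-CSF receptor either as wild type or carrying the Ser585Gly substitution, a serine changed to glycine. All cells, the controls included, first went without growth factor for 12 h in RPMI medium with 0.5% serum (0 h), and the 12 h cells were afterwards stimulated with 50 ng/mL of the human cytokine during 12 h. Total RNA of the 4 states (wild type 0 h, wild type 12 h, Ser585Gly 0 h, Ser585Gly 12 h) was compared on 8 spotted oligonucleotide arrays read in both Cy5 and Cy3. A square design with 4 sides was used, namely 12 h against 0 h in each cell population and Ser585Gly against wild type at each time, each hybridised in both dye orientations. The 12 h or the Ser585Gly RNA was labelled with Cy5 on replicate 1 and with Cy3 on replicate 2. No label names separate cultures or extracts, or says how the lines were derived, so p-values measure the spread between hybridisations only. There was no 12 h sample without GM-CSF, so that GM-CSF and elapsed time cannot be told apart. The human receptor chain itself was not analysed here. Differences in chaperone RNA per cell and in the make-up of the culture cannot be told apart in RNA from whole cultures.

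Chaperones bind unfolded stretches of other proteins and keep them from aggregating. In the cytosol, Hsp70 proteins work with J-domain partners (Dnaj genes) and nucleotide exchange factors, pass many clients to Hsp90, and share the folding of actin and tubulin with CCT/TRiC, a double ring built of distinct subunits. Mitochondria use their own Hsp70 (Hspa9) and the Hsp60/Hsp10 pair (Hspd1, Hspe1), and the ER uses BiP (Hspa5), Grp94 (Hsp90b1), lectin chaperones and protein disulphide isomerases. Heat shock factors drive many cytosolic and mitochondrial chaperone genes through heat shock elements, whereas the unfolded protein response drives ER chaperones through ER stress response elements. Growth factor stimulation of resting lymphoid cells is known to raise protein synthesis and with it the demand for folding.

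The promoter sequences are shown first because, within the set, the ER stress response element was found in windows of ER genes alone. RefSeq promoter windows (GRCm38.p6; the 250 bases before each annotated start, on the strand of the gene) were found for 38 of the 45 genes and for 27025 genes in all. Hsp90aa1, Hsp90ab1, Hsf1, Hspa8, Hspa9, Dnajc2 and Cct4 had no entry. The ER stress response element, searched as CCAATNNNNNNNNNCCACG on both strands, was present in the windows of 5 members, all of them among the 9 ER genes (Calr, Canx, Hsp90b1, Hspa5 and Pdia6), against 0.13% of all genes. The capitals mark the element in the whole windows of Hspa5 and Hsp90b1, at chr2:34771840-34772089 (plus strand) and chr10:86705445-86705694 (minus strand), and in 30 bases around it for Calr, Canx and Pdia6, at chr8:84847069-84847098 (minus), chr11:50325794-50325823 (minus) and chr12:17266486-17266515 (plus):
Hspa5: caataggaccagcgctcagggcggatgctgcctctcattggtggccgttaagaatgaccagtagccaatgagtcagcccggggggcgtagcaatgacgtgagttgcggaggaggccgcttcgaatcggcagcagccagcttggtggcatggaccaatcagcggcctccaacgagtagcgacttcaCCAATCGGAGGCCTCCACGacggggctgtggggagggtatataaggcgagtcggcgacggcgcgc
Hsp90b1: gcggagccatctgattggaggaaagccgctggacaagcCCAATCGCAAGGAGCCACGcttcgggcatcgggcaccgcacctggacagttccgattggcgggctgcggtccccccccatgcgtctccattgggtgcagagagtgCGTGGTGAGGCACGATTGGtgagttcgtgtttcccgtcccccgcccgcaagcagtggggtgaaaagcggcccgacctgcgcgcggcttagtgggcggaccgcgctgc
Calr: caacgCGTGGTCGACCCTCATTGGcccata
Canx: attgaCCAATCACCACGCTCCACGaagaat
Pdia6: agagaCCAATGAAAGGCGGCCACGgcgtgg

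Counted from the start, the Hspa5 element began at −65, and the Hsp90b1 window held a pair of elements in opposite orientations, beginning at −212 and −107. The heat shock element was searched as 3 alternating units (GAANNTTCNNGAA or TTCNNGAANNTTC) and, less strictly, as 2 units (GAANNTTC or TTCNNGAA), on both strands, every 3-unit match also holding a 2-unit match. The 3-unit form was present for Dnajb6, Hspd1 and Hspe1, against 0.514% of all genes, and the 2-unit form for 12 of the 38 members (31.6%), against 14.5% of all genes. None of the 9 ER windows held the 2-unit form, but at 14.5% of all genes 9 windows are too few to set the ER genes apart by it. The 3-unit form was also absent from the windows of 7 CCT/TRiC genes and of 6 genes of the Hsp90 group. Hspd1 and Hspe1 start near each other on opposite strands of chromosome 1, and the same stretch, at chr1:55088053-55088082, gave the match for both. The sites below mark the units in capitals, for the shared Hspe1 and Hspd1 stretch (plus strand) and for Hsph1 (chr5:149636351-149636380, minus), Fkbp4 (chr6:128438789-128438818, minus) and Hspa1a (chr17:34972242-34972271, minus), which have the 2-unit form:
Hspe1: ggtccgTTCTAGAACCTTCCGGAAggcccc
Hsph1: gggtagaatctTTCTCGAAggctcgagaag
Fkbp4: ccgcttctctaGAAAGTTCtccgctcccgc
Hspa1a: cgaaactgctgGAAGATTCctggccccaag

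A match describes letters in a window and not a bound site. The hexamer CACGTG, the E-box bound by Myc and Max, was present for 5 of 38 members (Calr, Dnajb9, Fkbp5, Hspd1 and Hsph1), against 6.86% of all genes.

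Quality checks that touch these genes come before their values. The T-cell label was checked against marker genes, with 13 of 14 measured markers in the brighter part of the array (above the median probe) and 0 of 5 B cell, 3 of 6 myeloid, 1 of 4 erythroid, 2 of 5 mast cell and 2 of 5 fibroblast markers there. No probe of the B cell, myeloid, mast cell or fibroblast lists passed the test in any comparison, and 1 erythroid marker was lower at 12 h in each population. Of the 14 T-cell markers, 1 was higher and 2 lower at 12 h in each population. Among all genes 5.61% were higher and 4.59% lower in wild type, and 6.34% and 5.26% in Ser585Gly. In Ser585Gly against wild type, 1 T-cell marker was lower at 0 h and 1 at 12 h (2.36% and 0.881% of all genes). Median foreground intensity ran from 631 to 946 in Cy5 and from 795 to 1105 in Cy3. After whole-array loess, the normalisation of the main analysis, the medians of the 48 print blocks lay between −0.37 and 0.43 on 7 arrays. On the array of Ser585Gly against wild type at 0 h with Ser585Gly in Cy5 (replicate 1), they ran from −1.0 to 0.40. The 9 blocks of that array under −0.4 held 9 of the 40 chaperone genes (Hspa4, Hspa8, Dnaja1, Dnajb6, Dnajc2, Ptges3, Cdc37, Cct4 and Canx) and 18.5% of all genes. Blocks 13 and 16 lay just above that limit, with medians of −0.38 and −0.36. They held 5 members (Cct2, Cct3, Cct6a, Cct7 and Tcp1) among 448 probes and 2 members (Hspa1a and Hspe1) among 463 probes. Counts of called genes are therefore given also after loess within each print block (print-tip loess), which removes block offsets, and without the array.

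**Figure D1:**
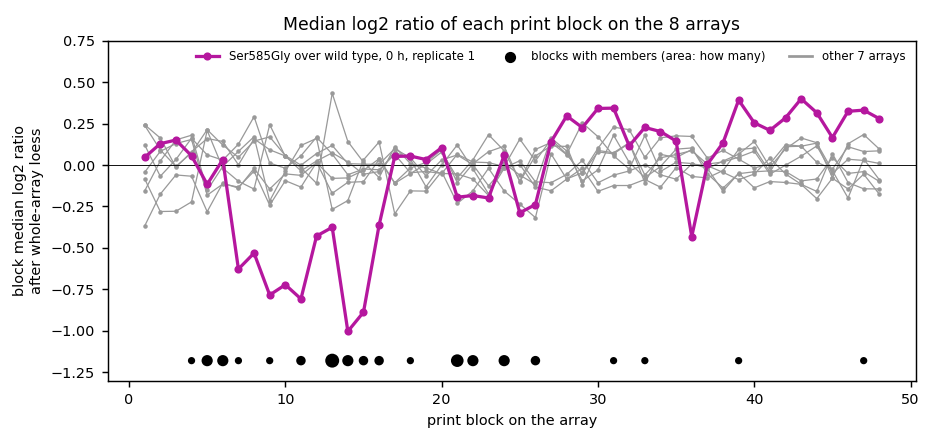
Median log2 ratio (vertical axis) of the probes in each of the 48 print blocks (horizontal axis) after whole-array loess, 1 line per array, with the direction turned so that 12 h or Ser585Gly is positive. The coloured line, replicate 1 of Ser585Gly against wild type at 0 h, falls to −1.0, while the other 7 arrays lie between −0.37 and 0.43; black dots mark blocks that hold chaperone genes.

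The first comparison asked how chaperone transcripts responded to 12 h of GM-CSF in cells with the wild-type receptor chain. At an adjusted p under 0.05, 7 members were higher at 12 h and 0 were lower (limma, Benjamini-Hochberg over 21784 probes). Those were 7 of 40, against 5.61% higher and 4.59% lower among all 15089 genes and 10.1% higher and 7.63% lower among the 4612 genes above the 75th percentile of brightness, where most members lie. The median log2 change was 0.10 over the 40 members and −0.01 over all genes. In Ser585Gly cells 11 of 40 members were higher and 0 lower, against 6.34% higher and 5.26% lower of all genes and 12% and 8.82% among those 4612 bright genes, with a median of 0.28 against 0.00. The 2 responses come from different RNA but from 1 fit over the square, so their counts are not independent. Through that fit the array with the low blocks enters the 2 responses with opposite signs, as seen below for Hspa8 and Hspa4. Whether the 2 medians differ was not tested. The rises called in the main analysis lay in the cytosol and mitochondria, at 3 of 8 CCT/TRiC subunits, 2 of 6 mitochondrial chaperones and 1 member each of the Hsp70 and Hsp90 groups in wild type, and at 4, 2, 3 and 2 members in Ser585Gly. The ER group had 0 of 9 in both (limma; unadjusted p under 0.05 for 1 and 2 of 9). Dnajb11 of the ER group was called higher in both populations after print-tip loess, and also without the array with the low blocks.

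**Figure D2:**
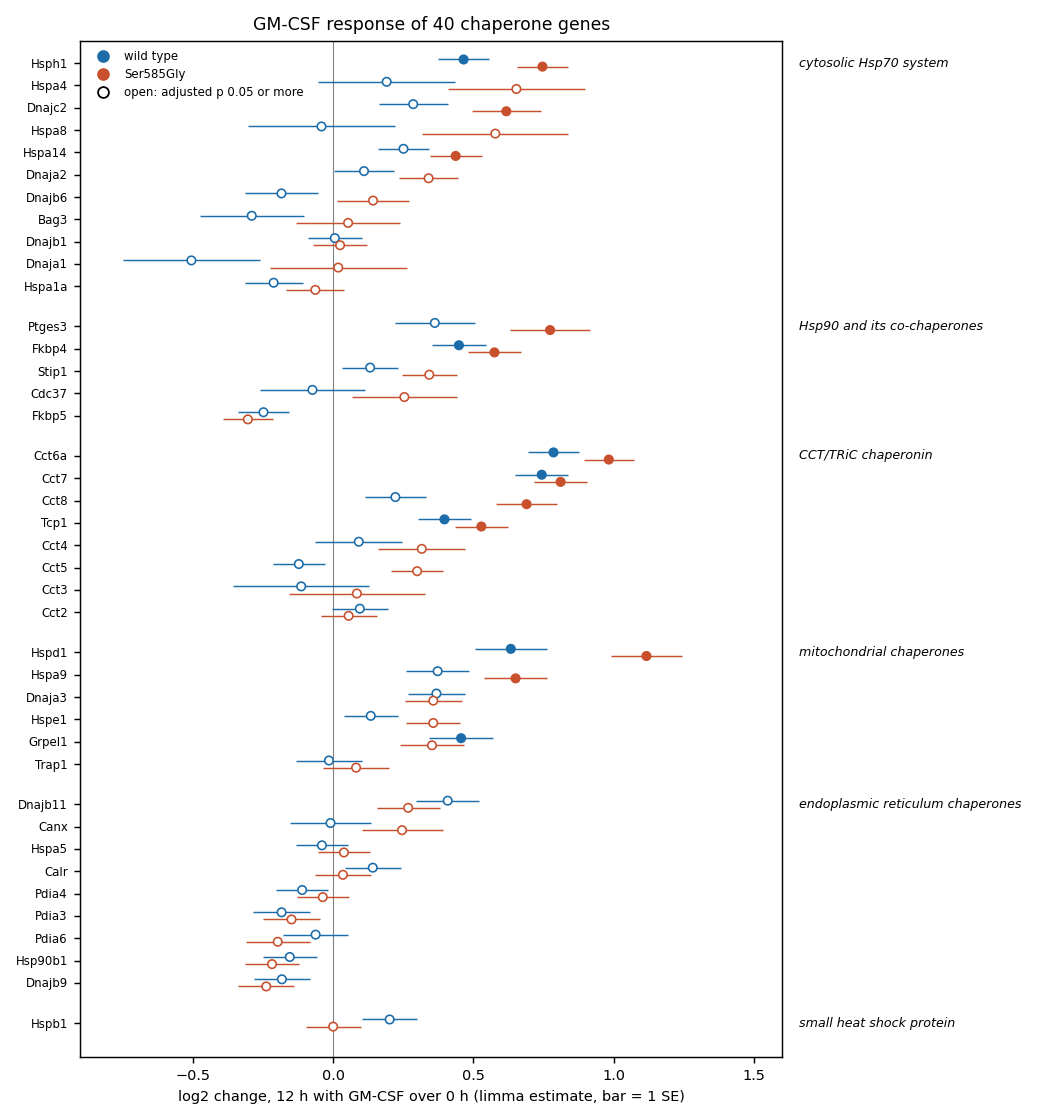
Log2 change from 0 h to 12 h with GM-CSF (horizontal axis) for each of the 40 measured chaperone genes (vertical axis), grouped by compartment, in wild-type (blue) and Ser585Gly cells (orange). Points are limma estimates over the 8 arrays with bars of 1 SE, and filled points passed an adjusted p of 0.05; the filled points are all to the right of 0 and none is an ER chaperone.

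Among mitochondrial chaperones, Hspd1 encodes Hsp60, the barrel in which imported proteins fold. Its log2 ratio of 12 h over 0 h was 0.80 and 0.52 on the wild-type arrays and 1.35 and 0.83 on the Ser585Gly arrays. All 4 values were above 0, and both Ser585Gly values were above both wild-type values. This separation was not tested by itself, and the difference of the Hspd1 responses, given below, did not pass. The fitted rise was 0.63 ± 0.13 (SE) in wild type, or 1.55-fold (limma adjusted p = 0.0192), and 1.12 ± 0.13 in Ser585Gly, or 2.17-fold (adjusted p = 0.00194), the largest change of any member in either population. Hspe1, the Hsp10 lid of the same chamber and its neighbour at the start site shown above, changed by 0.13 and 0.36 (adjusted p = 0.463 and 0.0522).

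Hspa9, the mitochondrial Hsp70 that pulls proteins through the inner membrane, gave 0.45 and 0.28 in wild type and 0.75 and 0.57 in Ser585Gly. Its rise passed in Ser585Gly (0.65 ± 0.11, 1.57-fold, limma adjusted p = 0.00859) and not in wild type (0.37, adjusted p = 0.0754). Grpel1, the nucleotide exchange factor of that Hsp70, rose in wild type (0.46 and 0.53 on the arrays; 0.46 ± 0.11, adjusted p = 0.0404). In Ser585Gly, Grpel1 gave 0.53 on one array and 0.09 on the other, and the fitted 0.35 did not pass (adjusted p = 0.0924). Dnaja3, the mitochondrial J-protein, changed by 0.37 and 0.36 without passing (0.0582 and 0.061), and Trap1, the mitochondrial Hsp90, by −0.01 and 0.08. After print-tip loess Dnaja3 passed in both populations and Hspa9 also in wild type, and both did so without the array with the low blocks.

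CCT/TRiC held the largest wild-type rises of the main analysis. Cct6a gave 0.57 and 0.99 on the wild-type arrays and 0.83 and 1.14 on the Ser585Gly arrays, all 4 above 0 with the populations overlapping. Its fitted rise was 0.79 ± 0.09 (1.72-fold, limma adjusted p = 0.00173) in wild type and 0.98 ± 0.09 (1.98-fold, adjusted p = 0.000655) in Ser585Gly. Cct7 gave 0.59 and 0.90 in wild type and 0.49 and 1.13 in Ser585Gly, with fitted rises of 0.74 ± 0.10 (adjusted p = 0.00284) and 0.81 ± 0.10 (0.00203). In both subunits the array with 12 h RNA in Cy3 read higher than its dye swap in each population.

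Tcp1, the founding subunit of the ring, gave 0.24 and 0.55 in wild type and 0.23 and 0.83 in Ser585Gly, with rises of 0.40 ± 0.09 (limma adjusted p = 0.0351) and 0.53 ± 0.09 (0.0104). A second, dimmer Tcp1 probe gave 0.15 (adjusted p = 0.514) and 0.46 (0.0421). Cct8 gave 0.15 and 0.22 in wild type and 0.52 and 0.94 in Ser585Gly, so that the populations did not overlap. The difference of its responses, given below, did not pass. In the main analysis Cct8 passed in Ser585Gly alone (0.69 ± 0.11, limma adjusted p = 0.00618, against 0.22 and 0.26 in wild type). After print-tip loess it passed in wild type as well. Cct6a, Cct7 and Tcp1 share block 13 with Cct2 and Cct3, and that block had a median of 0.43 on replicate 2 of the Ser585Gly time arrays. After print-tip loess the wild-type rises were 0.56 for Cct6a, 0.38 for Cct7 and 0.07 for Tcp1, whose call was lost (adjusted p = 0.508). Their rises in Ser585Gly were then 0.83, 0.61 and 0.34, and all 3 still passed. In wild type Cct7 then stood below Hsph1 (0.53), Fkbp4 (0.51) and Ptges3 (0.49). The other subunits, Cct2, Cct3, Cct4 and Cct5, had estimates from −0.12 to 0.32 over both populations. Of these, Cct4 passed in both populations after print-tip loess (0.22 and 0.26, limma adjusted p = 0.0475 and 0.0223). Cct5 then passed in Ser585Gly (0.32, 0.0151). Cct3 was the dimmest member, at the 7.07th percentile of brightness, and its dye swaps disagreed in Ser585Gly (−0.55 and 0.69).

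In the cytosolic Hsp70 system the call shared by both populations was Hsph1, an Hsp110 that exchanges nucleotide on Hsp70 and helps dissolve aggregates. It gave 0.52 and 0.44 in wild type and 0.75 and 0.70 in Ser585Gly, all above 0 and without overlap, though the difference of responses, given below, did not pass. The fitted rises were 0.47 ± 0.09 (1.38-fold, limma adjusted p = 0.016) and 0.75 ± 0.09 (1.68-fold, 0.00224). Dnajc2, a J-protein that acts at the ribosome, gave 0.26 and 0.44 in wild type and 0.38 and 0.73 in Ser585Gly, and Hspa14, its ribosome-associated Hsp70 partner, gave 0.16 and 0.30 against 0.43 and 0.49. Both passed in Ser585Gly (0.62 ± 0.12, adjusted p = 0.0163, and 0.44 ± 0.09, 0.0208) and not in wild type (0.29, 0.2, and 0.25, 0.139). After print-tip loess both passed in wild type as well (limma, Dnajc2 0.36, adjusted p = 0.0127, and Hspa14 0.30, 0.0144). Without the array with the low blocks Dnajc2 also passed in wild type (0.35, 0.0354). Dnajc2 had 2 further, dimmer probes, with 0.43 and 0.10 in Ser585Gly, neither of which passed (adjusted p = 0.136 and 0.671).

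The classical heat-inducible genes did not pass. Hspa1a, the stress-inducible Hsp70, gave −0.02 and −0.37 in wild type and −0.11 and −0.04 in Ser585Gly, with estimates of −0.21 (95% interval −0.45 to 0.02, adjusted p = 0.262) and −0.06 (−0.30 to 0.17, adjusted p = 0.782). Its sequence is nearly the same as that of Hspa1b, so the probe may read both. Dnajb1, the J-protein induced by heat, changed by 0.01 and 0.03, Bag3, the stress-inducible exchange factor of selective autophagy, by −0.29 and 0.05, and Hspb1, the small heat shock protein, by 0.20 and 0.00. None of these 3 passed (adjusted p from 0.257 to 0.999). Among the cytosolic J-proteins, the log2 changes from 0 h to 12 h in wild type and in Ser585Gly were −0.50 and 0.02 for Dnaja1, 0.11 and 0.34 for Dnaja2, and −0.18 and 0.14 for Dnajb6, and none of the 3 passed in either population (limma, adjusted p from 0.082 to 0.979). With print-tip loess Dnaja2 passed in Ser585Gly (0.33, limma adjusted p = 0.0157). Hspa8, the constitutive Hsp70, lay in block 14, and its fitted values were −0.04 in wild type and 0.58 in Ser585Gly (adjusted p = 0.948 and 0.223). Without the array with the low blocks they were 0.16 and 0.38 (0.329 and 0.0391), and a dimmer Hspa8 probe gave 0.17 and 0.40. Hspa4 of the same block moved likewise, from 0.19 and 0.65 to 0.37 and 0.48, and then passed in Ser585Gly (adjusted p = 0.0407).

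Among Hsp90 co-chaperones, Fkbp4, an immunophilin of steroid receptor complexes, gave 0.32 and 0.56 in wild type and 0.61 and 0.56 in Ser585Gly. Its rise was 0.45 ± 0.09 (limma adjusted p = 0.0229) and 0.58 ± 0.09 (0.00761). Its relative Fkbp5, an inhibitor of the same complexes and a glucocorticoid target, had negative ratios on all 4 arrays, from −0.35 to −0.24, with estimates of −0.25 (adjusted p = 0.132) and −0.30 (0.07). Ptges3, the p23 co-chaperone that closes the Hsp90 cycle, gave 0.54 and 0.36 in wild type and 0.71 and 0.66 in Ser585Gly. It passed in Ser585Gly (0.77 ± 0.14, 1.71-fold, adjusted p = 0.0118) and not in wild type (0.36, 0.161), where it passed without the array with the low blocks (0.45, 0.0105). Stip1, which joins Hsp70 to Hsp90, changed by 0.13 and 0.34 (0.479 and 0.0643), and Cdc37, which brings kinases to Hsp90, by −0.07 and 0.25 (0.855 and 0.478).

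**Figure D3:**
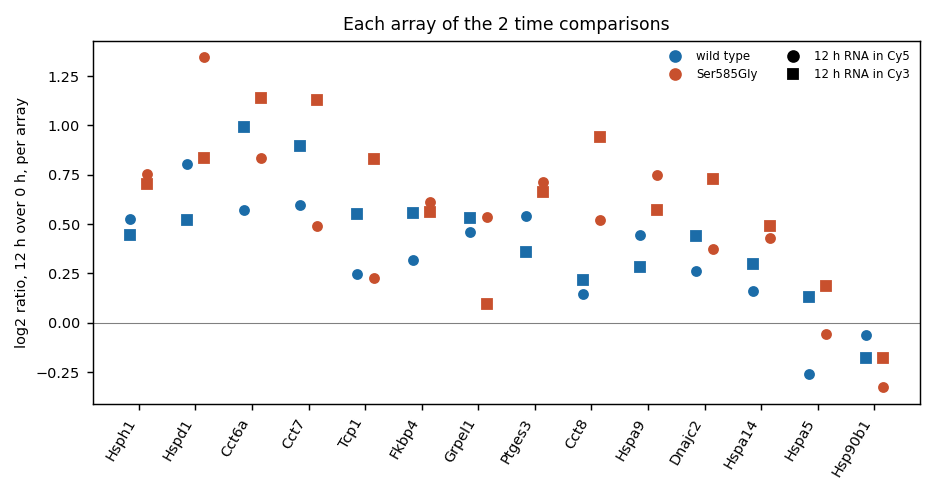
Log2 ratio of 12 h over 0 h (vertical axis) on each of the 4 time arrays for 14 chaperone genes (horizontal axis), circles with 12 h RNA in Cy5 and squares in Cy3, wild type in blue and Ser585Gly in orange. The 12 genes from Hsph1 to Hspa14, drawn because they were called higher in a time comparison, lie above 0 on all 4 arrays, from 0.09 to 1.35. The ER genes Hspa5 and Hsp90b1, not called there, lie between −0.33 and 0.18. The ER genes Dnajb11 (0.21 to 0.44) and Canx (0.09 to 0.15), not drawn, are also above 0 on all 4 arrays.

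ER chaperones had median changes of −0.06 in wild type and −0.04 in Ser585Gly, and whether they differ from the other groups was not tested. Hspa5 gave −0.26 and 0.13 in wild type and −0.06 and 0.18 in Ser585Gly, on both sides of 0 in each population. Its estimates were −0.04 (95% interval −0.25 to 0.17) and 0.04 (−0.17 to 0.25), with limma adjusted p of 0.841 and 0.855. It was the brightest member, near the top of the scanner range on 6 of 8 arrays, and its second probe gave 0.31 and 0.16 (0.142 and 0.469). Hsp90b1 gave −0.06 and −0.18 in wild type and −0.33 and −0.18 in Ser585Gly, all below 0, and neither estimate passed (−0.15 and −0.22). Dnajb11, a J-protein that delivers substrates to BiP, stood highest in this group at 0.41 and 0.27 (0.0578 and 0.189), and passed in both populations after print-tip loess (0.48 and 0.33, adjusted p = 0.00285 and 0.0127). It also passed in both without the array with the low blocks. Canx, Calr, Pdia3, Pdia4, Pdia6 and Dnajb9 had estimates from −0.24 to 0.25 over both populations.

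The counts of higher members depended on single arrays and on the normalisation. In wild type the 7 calls became 2 without either wild-type time array or without replicate 1 of the Ser585Gly time arrays, 4 without replicate 2 of either mutation comparison, and 12 without the array with the low blocks (8.48% higher and 7.73% lower of all genes). Calls over all probes fell as well, from 2073 to 613 and 413 without the wild-type time arrays and 1067 without that Ser585Gly array. They were 1385 and 1339 without replicate 2 of the mutation comparison at 0 h and 12 h. Cct6a and Cct7 were the pair that passed in wild type without any single array. In Ser585Gly the 11 calls became 3 without replicate 1 of its time arrays, 7 without replicate 2 and 18 (17 higher, 1 lower) without the array with the low blocks (9.18% and 8.26% of all genes). Over all probes, 2284 calls became 269 without that replicate 1 and 924 without that replicate 2. Cct6a, Cct7 and Hspd1 passed there without any single array. With print-tip loess 14 members were higher in wild type and 19 in Ser585Gly, against 10.5% and 11.5% of all genes. Then 0 were lower in wild type and 1 (Fkbp5) in Ser585Gly, against 9.64% and 10.1% of all genes. With each dye-swap pair averaged to 1 value, 3 remained higher in wild type (Cct6a, Cct7 and Hspd1, against 2.9% higher and 2.29% lower of all genes) and 9 in Ser585Gly (the 11 less Hspa14 and Tcp1, against 4.14% and 2.82%). The 3 and the 9 passed under all 3 of these alternatives.

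Other folding genes outside the 45, in 6 lists with 97 measured genes, were called higher in 9 and lower in 6 in wild type, and higher in 10 and lower in 10 in Ser585Gly, against 5.61% and 4.59% of all genes in wild type and 6.34% and 5.26% in Ser585Gly (10.1% and 7.63%, and 12% and 8.82%, of the 4612 bright genes). With print-tip loess the counts were 19 and 12 in wild type (10.5% and 9.64% of all genes) and 18 and 13 in Ser585Gly (11.5% and 10.1%). Without the array with the low blocks they were 17 and 10 (8.48% and 7.73%), and 15 and 12 (9.18% and 8.26%). With dye-swap pairs averaged they were 3 and 4 (2.9% and 2.29%), and 6 and 4 (4.14% and 2.82%). The largest changes were those of Dnajc15, a J-protein of the inner mitochondrial membrane, at −1.03 and −1.11 (limma adjusted p = 0.00128 and 0.000954). In wild type, Hspa12b, a distant Hsp70 relative, was lower (−0.95, 0.0152), and Herpud1, an ER membrane protein of ER-associated degradation, was higher (0.84, 0.00393). Ppif, the mitochondrial cyclophilin D, rose in both (0.79 and 0.97). In Ser585Gly, Timm9 (0.95, 0.00299) and Timm23 (0.88, 0.00609), of mitochondrial protein import, rose. Of the 14 mitochondrial folding and protease genes measured, 2 were higher and 2 lower in wild type, and 4 higher (Ppif, Timm9, Timm23 and Htra2) and 2 lower (Afg3l2 and Lonp1) in Ser585Gly. Of the 22 ER folding and unfolded protein response genes, 2 were higher (Herpud1 and Ddit3) and 2 lower (Atf6 and Eif2ak3) in wild type, and 0 higher and 5 lower (Eif2ak3, Atf6, P4hb, Sdf2l1 and Ddit3) in Ser585Gly. With pairs averaged the mitochondrial counts were 2 higher and 0 lower in wild type and 4 and 1 in Ser585Gly, and the ER counts 1 and 2, and 0 and 2. Genes of these lists beyond the 4 largest changes of a comparison are named here because the counts were small, after their values had been seen. Ddit3, the stress transcription factor CHOP, thus changed by 0.43 in wild type and by −0.36 in Ser585Gly (adjusted p = 0.0229 and 0.0439; 0.0897 and 0.135 with pairs averaged).

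The next comparison asked whether chaperone levels differed between the receptor forms before GM-CSF, at the end of factor deprivation. In Ser585Gly at 0 h, 5 members were lower (Cct7, Dnajc2, Hspd1, Hspa14 and Fkbp4) and 1 was higher (Hsp90b1), of 40, against 2.36% lower and 2.37% higher of all genes and 3.86% and 4.55% among those 4612 bright genes. The median difference was −0.20 over the 40 members and 0.00 over all genes. The 0 h RNA of each population is also the base of its own 12 h response, so the differences at 0 h and the responses are not independent. The medians of the groups were −0.32 for the Hsp70 system, −0.38 for Hsp90 co-chaperones, −0.30 for CCT/TRiC, −0.25 for mitochondrial chaperones and 0.18 for ER chaperones. After print-tip loess the same medians were −0.08, −0.11, −0.18, −0.17 and 0.19, and over all 40 members −0.09.

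Cct7, in block 13 (median −0.38 on replicate 1), was the strongest of these, with log2 ratios of Ser585Gly over wild type of −1.14 and −0.59. Its difference was −0.86 ± 0.10, or 0.55 of the wild-type level (limma adjusted p = 0.00376), and −0.82 after print-tip loess, where both arrays read alike (−0.76 and −0.80). It was the 1 member of the 6 that also passed with dye-swap pairs averaged (adjusted p = 0.0351) and without the array with the low blocks (−0.84, 0.0204). Without replicate 2 of the same comparison it did not pass.

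Dnajc2 gave −1.26 and −0.39, its first value in a block whose median was low, and the estimate of −0.76 ± 0.12 (limma adjusted p = 0.0166) became −0.49 after print-tip loess (arrays −0.50 and −0.56; adjusted p = 0.00774). Its dimmer probes gave −0.31 and 0.00 and did not pass, and the probe with −0.31 also lay in a low block (block 36). Hspd1 gave −0.85 and −0.52 (−0.66 ± 0.13, 0.632 of wild type, adjusted p = 0.0317), and after print-tip loess −0.50 (−0.58 and −0.54 on the arrays; 0.0167). Hspa14 gave −0.52 and −0.34 (−0.45 ± 0.09, adjusted p = 0.0366) and was −0.50 after print-tip loess (0.0045). These 3 were below 0 on both arrays under either normalisation, and none of the 3 passed without the array with the low blocks (adjusted p = 0.0609, 0.118 and 0.0863) or with pairs averaged (0.0514, 0.0599 and 0.102).

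Fkbp4 (−0.53 and −0.29; −0.43 ± 0.09, limma adjusted p = 0.048) and Hsp90b1 (0.32 and 0.47; 0.43 ± 0.10, 0.0484) were near the threshold and lost the call after print-tip loess (−0.30, 0.0769, and 0.28, 0.068). Tcp1 read −0.44 and 0.13 by its brighter probe (−0.16, adjusted p = 0.359) and −0.69 and −0.71 by its dimmer one (−0.60, 0.0327), so that its 2 probes disagreed. The dimmer Tcp1 probe lay in a low block, block 36, with a median of −0.43 on replicate 1. After print-tip loess it read −0.25 and −0.73 on the arrays, and the brighter probe −0.11 and −0.10. With print-tip loess Trap1 (−0.50), Cct8 (−0.46) and Cct4 (−0.30) were also lower and the lectin chaperone Calr (0.34) and the disulphide isomerase Pdia6 (0.67) were higher. The count was then 7 lower and 2 higher, against 5.12% and 5.65% of all genes. Without the array with the low blocks 1 was lower and 0 higher (0.908% and 0.809% of all genes), without replicate 2 of the same comparison 0 passed, and without any one of the other 6 arrays 1 to 3 passed. Over all probes, the 886 calls became 110 without that replicate 2 and 254 to 637 without any one of the other 6. Hspa14, Fkbp4 and Hsp90b1 lost the call whichever of the 8 arrays was left out, and Hspd1 for 7 of the 8. Hspa5 gave −0.12 and 0.12, with an estimate of −0.02 (95% interval −0.23 to 0.19). A second Hspa5 probe gave 0.20 and 0.50 (0.33, limma adjusted p = 0.138), and was near the top of the scanner range on both of these arrays. Hspa1a gave −0.21 and −0.10, with −0.14 (−0.38 to 0.09).

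The genes in low blocks show how far that array weighs on single members. Hspa8 read −1.74 and −0.16 on the 0 h pair, Hspa4 −1.77 and −0.16, Dnaja1, a cytosolic J-protein, −1.34 and 0.33, and Canx, the membrane lectin chaperone, −0.80 and −0.12. None of these 4 passed. After print-tip loess their fitted differences were −0.08, −0.30, 0.22 and 0.05, against −0.71, −0.78, −0.32 and −0.34 before it.

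**Figure D4:**
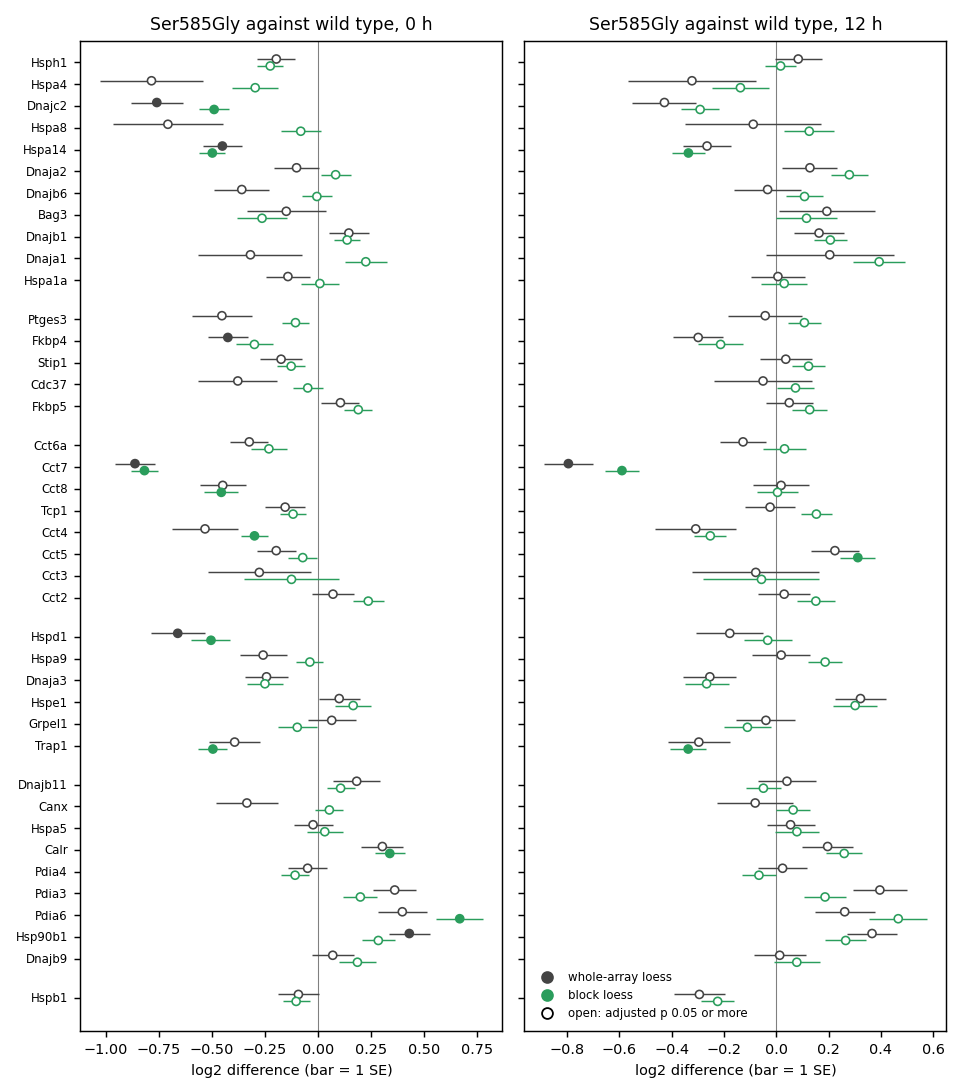
Log2 difference of Ser585Gly from wild type (horizontal axes) at 0 h (left) and 12 h (right) for the 40 measured chaperone genes (vertical axis, in compartment order), by whole-array loess (dark) and print-tip loess (green). Points are limma estimates with bars of 1 SE, filled where the adjusted p was under 0.05; Cct7 is filled under both normalisations at both times, and Hspa4, Hspa8 and Dnaja1 move toward or past 0 at 0 h with print-tip loess.

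Other folding genes were also compared at 0 h, where 10 of the 97 were higher and 7 lower in Ser585Gly, against 2.37% higher and 2.36% lower of all genes and 4.55% and 3.86% of the 4612 bright genes. Most of these calls were lost with dye-swap pairs averaged, which left 1 higher and 2 lower (0.55% and 0.901% of all genes), and without the array with the low blocks, which left 3 and 3 (0.809% and 0.908%). With print-tip loess there were 16 and 10 (5.65% and 5.12% of all genes). Of the 22 ER folding and unfolded protein response genes, 6 were higher and 0 lower. The 6 became 7 after print-tip loess, 2 without that array and 1 with pairs averaged, with 0 lower each time. P4hb, the founding protein disulphide isomerase, was the ER gene called under all of these (0.80, limma adjusted p = 0.00636; 0.0402 with pairs averaged and 0.0298 without the array). Of the 14 mitochondrial folding and protease genes, 0 were higher and 4 lower, and the 4 stayed 4 after print-tip loess and became 2 without the array and 2 with pairs averaged. The proteases Htra2 (−1.12, limma adjusted p = 0.0122) and Yme1l1 (−0.95, 0.0058) passed under all of these. The import chaperone Timm9 (−0.70, 0.0222) and the matrix protease Lonp1 (−0.46, 0.0483), the last named after its value was seen, did not pass with pairs averaged (0.0661 and 0.0998) or without the array (0.0775 and 0.0814).

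At 12 h with GM-CSF, 1 of 40 members differed between the receptor forms, against 0.881% lower and 1.07% higher of all genes and 1.71% and 1.95% among those 4612 bright genes. Cct7 read −1.04 and −0.55 and was lower in Ser585Gly by an estimate of −0.80 ± 0.10, or 0.576 of wild type (limma adjusted p = 0.00564). It kept the call after print-tip loess (−0.59, 0.00337), narrowly lost it with pairs averaged (0.0503), and did not pass without either array of this comparison. Without the array with the low blocks it was again the 1 call, against 1.54% lower and 1.77% higher of all genes. The median over the 40 members was 0.01, and over all genes −0.01. With print-tip loess Hspa14 (−0.34) and Trap1 (−0.34) were also lower and Cct5 (0.31) higher, giving 3 lower and 1 higher, against 2.14% and 3.15% of all genes. Hspd1, which differed at 0 h, read −0.06 and −0.24 at 12 h, with an estimate of −0.18 (95% interval −0.47 to 0.11, adjusted p = 0.633). Hsp90b1 read 0.34 and 0.46 (0.37, adjusted p = 0.13), Hspa5 −0.06 and 0.12 (0.05, adjusted p = 0.86) and Hspa1a 0.05 and −0.01 (0.01, adjusted p = 0.988). The second Hspa5 probe read −0.07 and 0.41 (0.19, limma adjusted p = 0.569). Of the 97 other folding genes, Dnajc3, an ER J-protein and inhibitor of PERK signalling, was higher (0.55, 0.0301) and Yme1l1 lower (−0.70, 0.0237), and neither passed with pairs averaged (adjusted p = 0.134 and 0.0785).

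The last comparison asked whether the 12 h response itself differed between the receptor forms. No member passed (limma; 6 of 40 had an unadjusted p under 0.05), against 0.0331% of all genes with a larger and 0.0265% with a smaller response in Ser585Gly. Print-tip loess (0.133% and 0.139% of all genes), averaged pairs and the fit without the array with the low blocks (0.0199% and 0% of all genes) also gave 0. The estimate was above 0 for 30 of 40 members, with a median of 0.19 against 0.01 over all genes, and above 0 for 11 of 11 members of the Hsp70 system and 4 of 9 ER members; after print-tip loess the median was 0.12 and the count 29. The smallest adjusted p was that of Cct5, at 0.435, with a difference of 0.42 and a 95% interval of 0.18 to 0.67. Hspd1 differed by 0.48 (0.14 to 0.82, adjusted p = 0.573), Cct8 by 0.47 (0.18 to 0.75, 0.461) and Hsph1 by 0.28 (0.04 to 0.52, 0.677). For Cct7, low in Ser585Gly at both times, the difference of responses was 0.07 (−0.18 to 0.32). A member that passed in Ser585Gly alone in the main analysis, such as Cct8, Ptges3 or Hspa9, is therefore not shown to respond differently from wild type. Cct8, Ptges3 and Hspa9 also passed in wild type after print-tip loess.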

How the data were processed

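The deposited scanner intensity values (foreground and local background per dye, per the file headers) were read for 8 arrays, and no source used here says how the image was quantified. Log2 ratios in the deposited table were made with limma, per the submitters' processing notes (no version or steps are named there). Table rows were placed on spots by probe number, and 90.1% of 21784 probes were nearest by values to that spot (0.0046% after shuffling). Names then followed a recovered print order; over 905 genes with 2 probes the probes correlated at 0.365 in it and −0.075 in the deposited order, so every gene name rests on it.

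Background was corrected by normexp (offset 50), followed by loess over each array (span 0.3, control spots at weight 0). limma 3.58.1 in R 4.3.3 was fitted to all 8 arrays with mutation, time, interaction and dye (4 residual and 4.35 prior degrees of freedom), with Benjamini-Hochberg adjustment over all placed probes and a threshold of 0.05; a gene was read by its brightest probe. The fit was tested on simulated data. Members given array by array were those called in any comparison plus Hspa1a and Hspa5; genes outside the members were named among the 4 largest called changes per comparison, apart from the exceptions stated. Members and lists were chosen with earlier results of these data known. Alternatives covered background, normalisation, deposited values, names, dye swaps, dye term, arrays, dim probes and several probes per gene. The number of arrays limits the precision. Dye-swap log2 ratios correlated across probes at 0.515 and 0.51 for time in wild type and Ser585Gly and at 0.124 and 0.218 for mutation at 0 h and 12 h; at 0 h the value was 0.351 after print-tip loess.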

Additional observations from a re-analysis of the deposited data

How the results depend on the processing

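Print-tip loess with pairs averaged and print-tip loess without the array with the low blocks were added after seeing the data. Called members numbered 7 for wild-type time, 11 for Ser585Gly time, 6 for mutation at 0 h, 1 at 12 h and 0 for the interaction. Print-tip loess gave 14, 20, 9 and 4, and the deposited log2 ratios 15, 21, 11 and 14. The pair as a random block gave 12, 19, 16 and 4 (consensus correlation −0.326). Averaged pairs gave 3, 9, 1 and 0, and direct arrays alone 2, 7, 2 and 1. No dye term gave 5, 9, 2 and 0, and median centring 6, 13, 3 and 1. Print-tip loess with averaged pairs gave 8, 12, 4 and 0, and without the array with the low blocks 15, 20, 4 and 6. The interaction stayed at 0 in all of these. Leaving out 1 array gave 2 to 12, 3 to 18, 0 to 3, 0 to 1 and 0 to 0. Over all probes print-tip loess gave 4090, 4280, 2039 and 995 calls against 2073, 2284, 886 and 373, and 48 against 12 for the interaction. The deposited log2 ratios gave 4184, 4239, 2551 and 2205 calls, and the random block 4192, 4319, 3383 and 1132. Averaged pairs gave 1076, 1359, 290 and 154, direct arrays alone 892, 1154, 227 and 158, and no dye term 1487, 1690, 509 and 280. Median centring gave 1533, 1810, 545 and 277. Print-tip loess gave 2446, 2718, 715 and 351 with averaged pairs, and 4455, 4728, 736 and 1068 without the array with the low blocks. Median centring moved the share of higher calls from 54.9% to 65.1% for Ser585Gly time, and at 0 h from 50.8% to 41.1% (39.7% with averaged pairs).

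Every reversed sign came from names without the recovered print order, which put other spots under these names and gave 3, 2, 6 and 5 calls. In wild-type time these were Hsph1 −0.13, Dnajc2 −1.09, Fkbp4 −0.14, Cct6a −0.20, Tcp1 −0.16 and Grpel1 −0.0284. In Ser585Gly time they were Hspa14 −0.0635, Dnajc2 −0.66, Fkbp4 −0.13, Cct7 −0.00503, Cct8 −0.0852, Tcp1 −0.0764 and Hspa9 −0.00651. At 0 h they were Cct7 0.12, Hspd1 0.65 and Hsp90b1 −0.35, and at 12 h Cct7 0.10, Hspd1 0.67 and Hsp90b1 −0.72. No paired analysis was possible because the replicate numbers mark dye orientation and pair no samples across the comparisons. Spots near the top of the scanner range (102 to 178 per array, Hspa5 among them) limit the ratios they can show.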
